A study of Mus musculus with 6 samples.

Results

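Polyamine synthesis and its control was examined through 10 genes in mouse T-cell leukaemia cells sorted by their MYC level. The genes were Odc1, Srm, Sms, Amd1, Sat1, Oaz1, Oaz2, Azin1, Smox and Paox. A gene was measured where at least 1 probe set of the array carried its symbol and no other, which held for 7 of the 10 genes, by 14 probe sets of 34945 single-symbol probe sets of 18193 genes. Sms was left out because its 3 probe sets are also assigned to the pseudogene Sms-ps, and 1 further probe set shared between Oaz1 and the pseudogene Oaz1-ps was not used. No probe set was named for Amd1 or Paox in the annotation used, so these genes were not analysed here.

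The cells came from T-cell acute lymphoblastic leukaemias (T-ALL) of genotype Notch1[delta]E mycGFP, that is, driven by an activated NOTCH1 receptor in mice whose MYC carries a GFP tag. All samples were CD25+ splenocytes of C57BL/6 mice aged 12 weeks, taken 4 weeks after transplantation into congenic recipients and sorted by mCherry and GFP. The groups were 3 MycGFP negative and 3 MycGFP positive arrays, from 3 independent leukaemias by the design, and their labels differ only in GFP; the sources used here do not give the promoter that drives the NOTCH1 construct. The comparison asks how transcripts of MycGFP positive leukaemia cells, termed initiating cells in the title of the series, differ from those of MycGFP negative cells.

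Polyamines are small cations, putrescine, spermidine and spermine, that bind RNA and DNA and are needed by dividing cells. Ornithine decarboxylase (Odc1) makes putrescine from ornithine, and spermidine synthase (Srm) and spermine synthase (Sms) extend it with groups that S-adenosylmethionine decarboxylase (Amd1) provides. Antizymes (Oaz1, Oaz2) bind ornithine decarboxylase, send it to the proteasome and limit polyamine uptake, while the antizyme inhibitor (Azin1), an inactive relative of the decarboxylase, captures antizyme. Antizyme protein is made through a ribosomal frameshift that polyamines promote, so its amount is set largely after transcription. Odc1 is a textbook target of MYC, which binds the sequence CACGTG and its variants.

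All 8 measured T cell and leukaemia markers of 9 listed, among them Cd3e, Thy1, Ptcra and Il2ra (which encodes CD25), were above the median of every array. Their intensities summed to 67993 to 76418 in negative and to 57946 to 69310 in positive samples. Markers of other cells were mostly under the array medians of 30.5 to 32.7, but Mpo and Lyz2, genes of myeloid cells, were high on both arrays numbered 2, where the 6 myeloid markers summed to 1558 (negative) and 723 (positive) against 93.6 to 165 on the other arrays. The 3 measured of 4 NK cell markers summed to 118 to 334 in negative and 36.7 to 113 in positive samples, a difference carried by Klrd1, as Ncr1 and Eomes stayed below the median on all 6 arrays. The 6 measured of 7 B cell markers overlapped between the groups in their sum, at 224 to 765 and 130 to 488, as did the 3 measured of 5 erythroid ones, at 61.0 to 87.8 and 60.6 to 77.3. On both arrays numbered 1, however, only 2 of the 6 B cell markers were under the median, against 4 or 5 on the other arrays. There Ms4a1 had 117 (negative) and 172 (positive), against 9.43 to 20.6 elsewhere, and Cd79b was above the median on all 6 arrays. Negative arrays had 3' to 5' ratios of the Gapdh control probe sets, which reflect RNA quality, of 1.58 to 1.89, and positive arrays had 1.48 to 1.58. The same ratio of the Actb controls overlapped, with 1.54 to 1.87 in negative and 1.72 to 1.85 in positive samples. The part of these signals in the results below was not tested.

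Both measured enzymes of polyamine synthesis were higher in MycGFP positive cells: Odc1 by 5.81-fold and Srm by 5.60-fold. No other member passed the test, an adjusted p under 0.05 in limma over all 18193 genes, and none was called lower. The 2 called of 7 measured members stand beside 4.62% of all genes called higher and 1.51% called lower. At an unadjusted p under 0.05, 3 members were higher (Odc1, Srm and Azin1) and 1 was lower (Sat1), where 14.7% and 7.35% of all genes were. The median log2 difference of the 7 members was 0.05, against 0.01 over all genes, so the members did not share a shift, and their differences ran from -0.75 for Smox to 2.54 for Odc1. In samples of sorted cells, more cells that express a gene and more RNA of it per cell cannot be told apart.

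**Figure D1:**
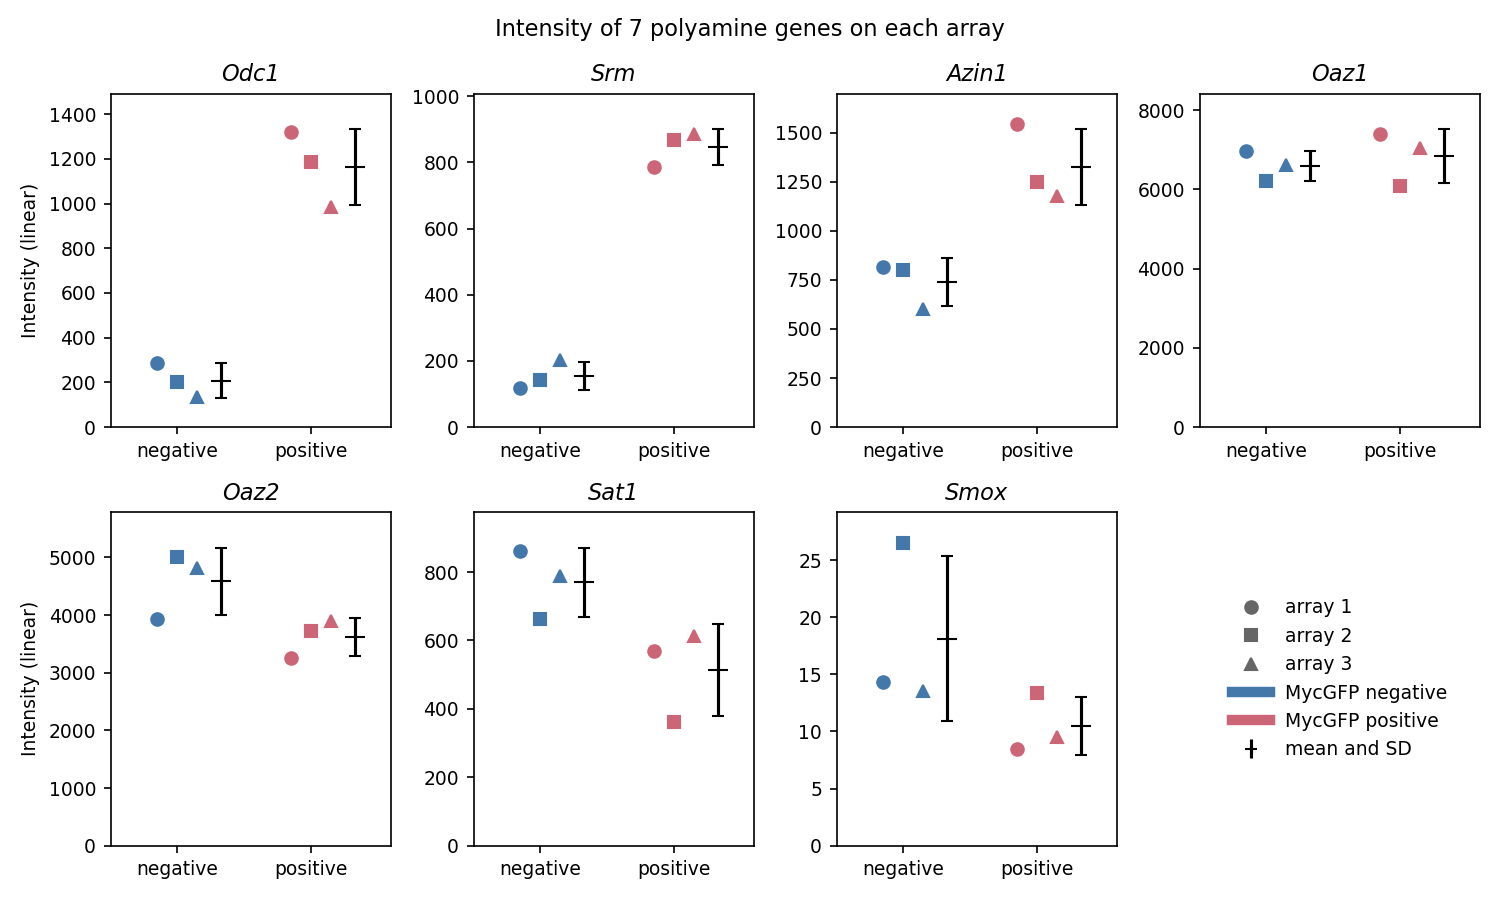
Linear intensity of the 7 measured polyamine genes on each of the 6 arrays, with 1 panel per gene, each axis starting at 0, marker shapes for array numbers 1 to 3, and the mean with its SD (n = 3) beside the points. The positive arrays of Odc1 (986 to 1321) and Srm (784 to 886) lie far above the negative ones (134 to 287 and 119 to 202), whereas those of Oaz1 overlap.

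Odc1, which encodes the enzyme at the entry of the pathway, had intensities of 287, 204 and 134 on negative arrays 1, 2 and 3. On positive arrays 1, 2 and 3 it reached 1321, 1184 and 986. The lowest positive value was thus well above the highest negative one, and the means were 208 ± 76.6 and 1164 ± 168 (SD, n = 3). On the log2 scale Odc1 was higher by 2.54, SE 0.30 (limma, adjusted p = 0.0152), and the 95% interval of its fold ran from 3.53-fold to 9.57-fold. This difference was the 76th largest rise among the 18193 genes.

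All 3 Odc1 probe sets rose when each was tested among the 34945 single-symbol probe sets, of which 4.76% were called higher and 2.16% lower. The brightest carries the suffix of probe sets that can bind related transcripts, and gave the values above. The second had 277, 179 and 136 on the negative and 992, 908 and 862 on the positive arrays, a 4.86-fold rise (limma, adjusted p = 0.0138). The dimmest had 63.2, 58.3 and 42.0 on the negative and 224, 152 and 214 on the positive arrays, a 3.61-fold rise (adjusted p = 0.0149). Each of the 3 probe sets separated the groups, as 16.6% of all probe sets did with higher and 12.0% with lower positive values.

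The 250 bases before the annotated start of Odc1 are shown because this gene moved with the MYC sort. Those of Oaz1, which barely moved, and Sat1, which had lower values, are shown for comparison. Of the 10 members, 8 had such a sequence in the source used. Srm, which also rose, and Azin1 had none. They are written 5′ to 3′ along each gene's own strand (RefSeq, build GRCm38.p6), and capitals mark CACGCG, a variant of the MYC binding sequence, and GGGCGG, the core of the GC box, on either strand (CGCGTG and CCGCCC are the same motifs on the other strand).
Odc1, chr12:17544623-17544872, plus strand: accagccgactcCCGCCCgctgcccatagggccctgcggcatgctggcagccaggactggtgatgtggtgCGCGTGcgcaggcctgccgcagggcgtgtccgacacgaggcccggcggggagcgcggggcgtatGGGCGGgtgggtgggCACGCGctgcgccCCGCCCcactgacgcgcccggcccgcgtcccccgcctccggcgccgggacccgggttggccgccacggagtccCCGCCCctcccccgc
Oaz1, chr10:80826406-80826655, plus strand: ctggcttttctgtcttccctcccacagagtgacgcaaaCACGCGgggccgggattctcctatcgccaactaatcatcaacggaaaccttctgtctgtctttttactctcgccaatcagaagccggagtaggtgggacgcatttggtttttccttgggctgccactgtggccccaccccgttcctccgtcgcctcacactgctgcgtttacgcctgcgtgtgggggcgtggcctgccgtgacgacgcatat
Sat1, chrX:155216450-155216699, minus strand: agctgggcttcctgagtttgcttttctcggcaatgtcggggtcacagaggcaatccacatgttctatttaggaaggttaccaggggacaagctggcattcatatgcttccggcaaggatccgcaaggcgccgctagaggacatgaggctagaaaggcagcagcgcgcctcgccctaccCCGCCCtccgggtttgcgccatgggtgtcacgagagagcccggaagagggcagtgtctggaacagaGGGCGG

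The sequence before Odc1 was 80.0% G and C, against 58.0% for Oaz1 and 59.6% for Sat1. Its 300-base window, which adds 50 bases after the start, held CACGCG at 2 places, whose first bases lie at -180 and -101 from the start, and GGGCGG at 4 places. None of the windows of Odc1, Oaz1 and Sat1 held CACGTG. Among the members with a sequence, only a window of Sms held it, with its first base at -196. Oaz1 held 1 CACGCG and no GGGCGG, while Sat1 held no CACGCG and 2 GGGCGG. Another window of Sms, which has no value here, held CACGCG with its first base at -140. Among all 32851 windows of this length, 7.15% held CACGTG, 9.27% held CACGCG and 35.7% held GGGCGG. The windows behind these shares were not matched to Odc1 in G and C content. These matches describe the letters in the window only. Sequence further from the start, within or outside the gene, was not searched, so a site there would not be seen.

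Srm, which encodes the enzyme that turns putrescine into spermidine, was measured by 1 probe set. Its intensity was 119, 143 and 202 on negative arrays 1, 2 and 3, and 784, 866 and 886 on the positive arrays. The groups lay far apart, and the positive arrays differed little among themselves, at 846 ± 54.1 (SD, n = 3) against 155 ± 42.6 (SD, n = 3). On the log2 scale Srm was higher by 2.48, SE 0.21 (limma, adjusted p = 0.0103), with a 95% interval of 3.90-fold to 8.04-fold. By p-value Srm ranked 35th and Odc1 136th of all genes tested.

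With 1 array left out, the log2 differences ran from 2.25 to 2.80 for Odc1 and from 2.31 to 2.69 for Srm, while the calls did not always hold. When positive array 2 was left out, limma called 0 of the 18193 genes, and Odc1 (adjusted p = 0.0675) and Srm (0.0591) had log2 differences of 2.52 and 2.47. Odc1 also missed the threshold when the array left out was negative 2 (adjusted p = 0.0570), positive 1 (0.0561) or positive 3 (0.0533), where Srm still passed. In these 3 fits 131, 174 and 104 of all genes were called higher, against 840 with every array. Without both arrays numbered 2, which carried the myeloid signal, the log2 differences were 2.54 for Odc1 and 2.43 for Srm, with adjusted p = 0.218 and 0.201 on 4 arrays, where again 0 genes were called. In limma with the array number as a block both genes passed (adjusted p = 0.0262 for each), where 5.75% of all genes were called higher.

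Odc1 and Srm were ordered differently among the arrays of each group. In both groups Odc1 was highest on array 1 and lowest on array 3, and Srm was lowest on array 1 and highest on array 3. Taken by array number, Odc1 differed by 2.20, 2.54 and 2.88 on the log2 scale for numbers 1, 2 and 3, while Srm differed by 2.72, 2.60 and 2.14. Myc itself, the gene sorted on, differed by 1.71, 1.58 and 0.80, so its order over the numbers was that of Srm and the reverse of that of Odc1. With 3 numbers this is a description without a test.

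Cell cycle genes had higher values on the positive arrays as well. Of 17 measured cell cycle genes of 18 listed, 7 were called higher (Plk1, Pcna, Mcm4, Mcm5, Mcm6, Mcm7 and Rrm1) and none lower, where 4.62% and 1.51% of all genes were. All 17 had a positive log2 difference. At an unadjusted p under 0.05 in limma, 15 were higher, where 14.7% of all genes were. In 15 the groups did not overlap, as in 17.0% of all genes with higher positive values. The median log2 difference of the 17 genes was 2.19, against 0.01 over all genes. Their intensities summed to 12588 to 36551 in negative and to 52244 to 62651 in positive samples. The mean log2 value of the list, on the scale of its own mean over the 6 arrays, was 0.05, -1.24 and -1.76 on negative arrays 1, 2 and 3. Odc1 lay at -0.74, -1.23 and -1.84 on the same arrays and scale, in the same order, and Srm at -1.59, -1.32 and -0.82, in the reverse order. On positive arrays 1, 2 and 3 the cell cycle list lay at 1.18, 0.93 and 0.84, Odc1 at 1.46, 1.31 and 1.04, and Srm at 1.14, 1.28 and 1.31. The part of the cell cycle genes in the rise of the enzymes was not tested.

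**Figure D2:**
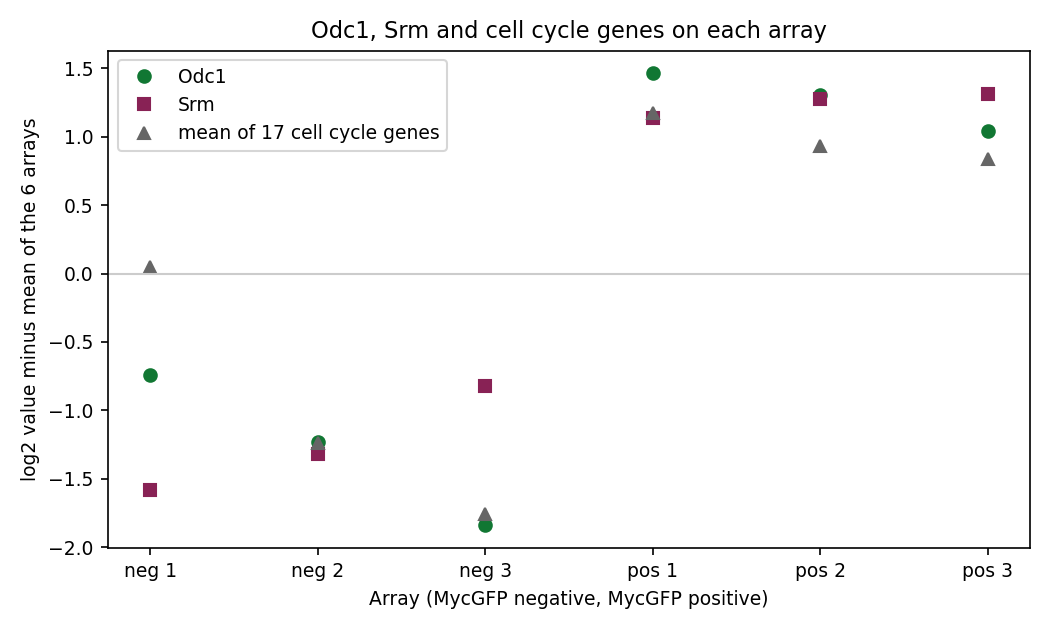
Log2 value of Odc1, of Srm and of the mean of 17 cell cycle genes on each array, each minus its own mean over the 6 arrays (vertical axis), for the 3 negative and 3 positive arrays (horizontal axis). Odc1 and the cell cycle genes are both lowest on negative array 3 among the negative arrays, where Srm is at its highest of that group.

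Among the genes that control ornithine decarboxylase, Azin1, the antizyme inhibitor, was higher on all 3 positive arrays but did not pass the test. Its brightest probe set had 817, 801 and 599 on negative arrays 1, 2 and 3, and 1543, 1249 and 1179 on the positive arrays. The groups did not overlap, as in 17.0% of all genes with higher positive values. This was a log2 difference of 0.84, SE 0.19, or 1.80-fold (limma, adjusted p = 0.0540). In limma with the array number as a block it passed (adjusted p = 0.0452), where 5.75% of all genes were called higher.

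The other Azin1 probe sets gave smaller differences. The second had 831, 806 and 557 on the negative and 1164, 869 and 922 on the positive arrays, a log2 difference of 0.44 (limma, adjusted p = 0.294). The third had 63.4, 47.9 and 29.9 on the negative and 60.9, 50.5 and 74.6 on the positive arrays, with overlapping groups and a log2 difference of 0.45 (adjusted p = 0.473). Without negative array 3 these differences were 0.26 and 0.15, and without negative array 1 that of the third was 0.70. The mean of the 3 probe sets differed by 0.58 on the log2 scale (adjusted p = 0.164).

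Oaz1, the main antizyme gene, was bright and nearly level, with 6968, 6208 and 6626 on the negative and 7391, 6090 and 7052 on the positive arrays. The groups overlapped, and array 2 was the lowest in each. The log2 difference of 0.05 with an SE of 0.13 (limma, adjusted p = 0.892) had a 95% interval from 0.83-fold to 1.30-fold. Its sign turned to -0.10 when each array was centred on its median, and to -0.0088 without positive array 1.

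Oaz2, a second antizyme gene, had lower values on the positive arrays in each of its 3 probe sets, and none was called. Its brightest had 3924, 5011 and 4824 on the negative and 3249, 3723 and 3892 on the positive arrays, so that the groups separated by a narrow margin. The shift of -0.34 on the log2 scale, SE 0.15, did not pass (limma, adjusted p = 0.272), with a 95% interval of 0.61-fold to 1.03-fold. The second had 729, 489 and 641 on the negative and 221, 398 and 424 on the positive arrays (log2 difference -0.87, adjusted p = 0.149, and -0.57 on the log2 scale without positive array 1). The third and dimmest, under the array median on the positive arrays, gave 51.9, 39.2 and 38.5 against 22.0, 31.2 and 30.1 (log2 difference -0.64, adjusted p = 0.126). The mean of the 3 probe sets differed by -0.62 (adjusted p = 0.0956).

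**Figure D3:**
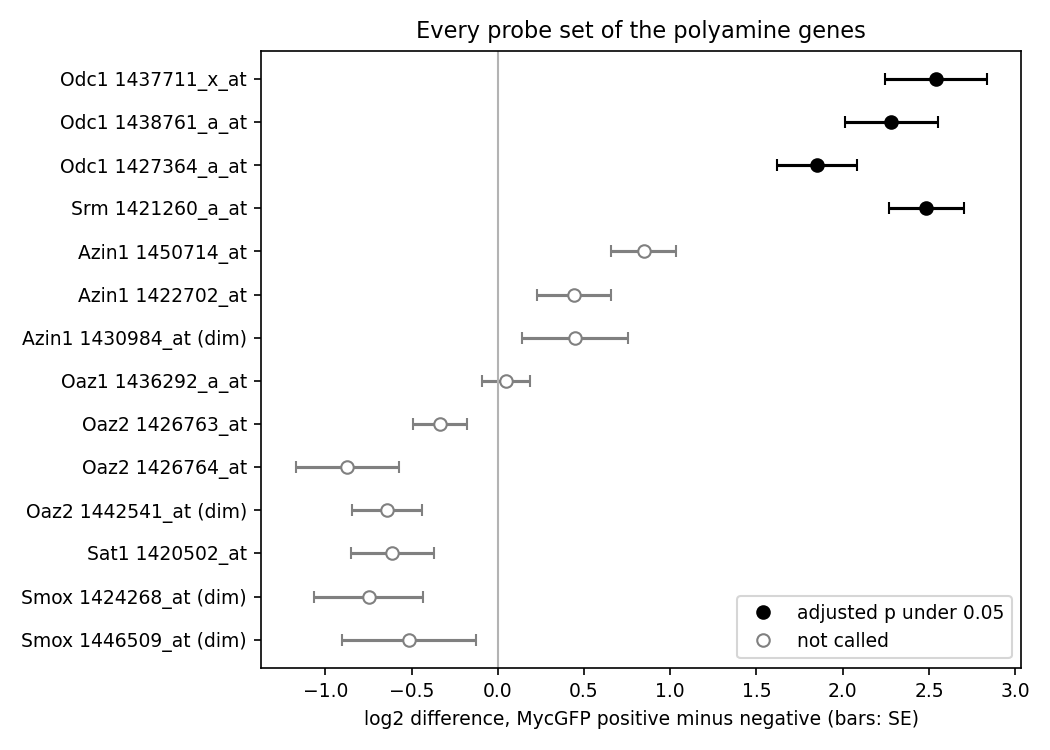
Log2 difference of MycGFP positive minus negative arrays for each of the 14 probe sets of the 7 genes, with limma's SE as bars; filled points passed at an adjusted p under 0.05 and probe sets marked dim lay below the array median on at least 1 array. The 3 Odc1 probe sets and that of Srm are filled, at 1.85 to 2.54, and the open points of Oaz2, Sat1 and Smox lie below 0.

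Whether Odc1 and its regulators changed unequally was tested on the difference of their log2 values within each array. Odc1 rose by 1.69 more than Azin1 and by 2.49 more than Oaz1 on the log2 scale. In both pairs every positive array lay above every negative one (exact permutation test, two-sided, p = 0.1, and 0.1 after adjustment over the 2 pairs). That is the smallest p that 3 arrays against 3 allow.

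Sat1, which acetylates spermidine and spermine for export or breakdown, had 862, 663 and 787 on negative arrays 1, 2 and 3, and 568, 361 and 614 on the positive arrays. All positive values lay below all negative ones, as in 11.2% of genes with lower positive values, and array 2 was the lowest of each group. The difference of -0.61 on the log2 scale, SE 0.24, or 1.53-fold lower, did not pass (limma, adjusted p = 0.204). By array number the differences were -0.60, -0.88 and -0.36. Without positive array 2, one of the arrays with the myeloid signal, the log2 difference was -0.37 (adjusted p = 0.373), and without both arrays numbered 2 it was -0.48 (adjusted p = 0.368).

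Smox, the spermine oxidase gene, was under the median of every array in both of its probe sets. The brighter had 14.4, 26.5 and 13.5 on the negative and 8.50, 13.4 and 9.55 on the positive arrays, with groups that separated by under 1 unit of intensity. Its log2 difference of -0.75 (limma, adjusted p = 0.234) compares signals under the array medians; it was -0.44 without negative array 2 and -0.35 with an offset of 16 added to the intensities. The other had 5.81, 13.6 and 5.07 against 6.05, 4.50 and 5.02, with overlapping groups (log2 difference -0.52, adjusted p = 0.518, and -0.07 on the log2 scale without negative array 2).

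Around the pathway, 27 of 29 listed genes were measured; 3 rose and none fell in limma over all genes, where 4.62% rose and 1.51% fell. At an unadjusted p under 0.05, 7 were higher and 1, Arg1, was lower, where 14.7% and 7.35% of all genes were. The median log2 difference was 0.34, against 0.01 over all genes. These genes supply arginine and ornithine, make S-adenosylmethionine or salvage methionine, move polyamines, or use spermidine to form hypusine.

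Of 7 genes for arginine and ornithine, Oat rose 2.21-fold (limma, adjusted p = 0.0192). Its product, ornithine aminotransferase, interconverts ornithine and a glutamate derivative. Its intensity was 320, 365 and 282 on the negative and 738, 767 and 630 on the positive arrays, with a wide gap between the groups. Oat missed the threshold when negative array 2 or any 1 positive array was left out (limma, adjusted p = 0.0536 to 0.0819). With the array number as a block it passed (adjusted p = 0.0295). Slc7a1, an arginine transporter gene, and Slc25a15, the mitochondrial ornithine carrier gene, had log2 differences of 0.79 and 0.90 without passing (adjusted p = 0.130 and 0.115). A dimmer probe set of Slc7a1, with means of 371 and 1703, was called in the fit over probe sets, 2.19 higher on the log2 scale (adjusted p = 0.0100). Arg1, the arginase gene, had 430, 51.6 and 54.5 on the negative and 15.9, 35.4 and 26.4 on the positive arrays, a log2 difference of -2.12 (adjusted p = 0.222) with negative array 1 far above the others.

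Of 7 measured genes for S-adenosylmethionine and methionine salvage among 8 listed, Enoph1 rose 2.60-fold (limma, adjusted p = 0.0223). It encodes a salvage enzyme that acts on the methylthioadenosine left over from spermidine and spermine synthesis, after later steps have modified it. Its intensity was 288, 441 and 443 on the negative and 956, 985 and 1046 on the positive arrays. The call was lost when negative array 2 or any 1 positive array was left out (limma, adjusted p = 0.0606 to 0.0884), and held with the array number as a block (0.0300). Enoph1 rested on a probe set that can bind related transcripts, and its remaining one gave 1.26 on the log2 scale, which did not pass (adjusted p = 0.118). Mtap, the gene of the first salvage enzyme, had a log2 difference of 1.28 in its brightest probe set (adjusted p = 0.113), from 767, 407 and 1114 to 1363, 1832 and 2012. Its 3 other probe sets were called higher in the fit over probe sets, with log2 differences of 1.62, 2.35 and 1.96 (adjusted p = 0.0497, 0.0107 and 0.0129). Mat2b, which regulates S-adenosylmethionine synthesis, had a log2 difference of 0.13 (adjusted p = 0.738).

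Of 6 transport genes, Slc3a2, which encodes the heavy chain of amino acid transporters and takes part in polyamine export, rose 1.48-fold (limma, adjusted p = 0.0464). Its intensity was 428, 445 and 436 on the negative and 661, 606 and 670 on the positive arrays. With the array number as a block it no longer passed (adjusted p = 0.0799), nor did it when any of the 6 arrays was left out (adjusted p = 0.0916 to 0.143). Of 4 hypusine genes none was called; Dohh, whose enzyme completes hypusine on the translation factor encoded by Eif5a, came nearest, with a log2 difference of 0.86 (adjusted p = 0.106), and 1 of the 4 was higher at an unadjusted p under 0.05. The dimmer Dohh probe set had the opposite sign, at -0.43 (adjusted p = 0.289), and the mean of both differed by 0.21 (adjusted p = 0.557). Of 3 measured relatives of the members among 4 listed none was called in the fit over genes, and none passed there at an unadjusted p under 0.05. Oaz3, a further antizyme gene, had the smallest adjusted p (0.456). Its probe sets differed in sign, with log2 differences from -0.29 to 0.97 (limma over probe sets, adjusted p = 0.268 and 0.145, unadjusted p = 0.0700 and 0.0242). These 2 extreme probe sets were under the median on most arrays.

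**Figure D4:**
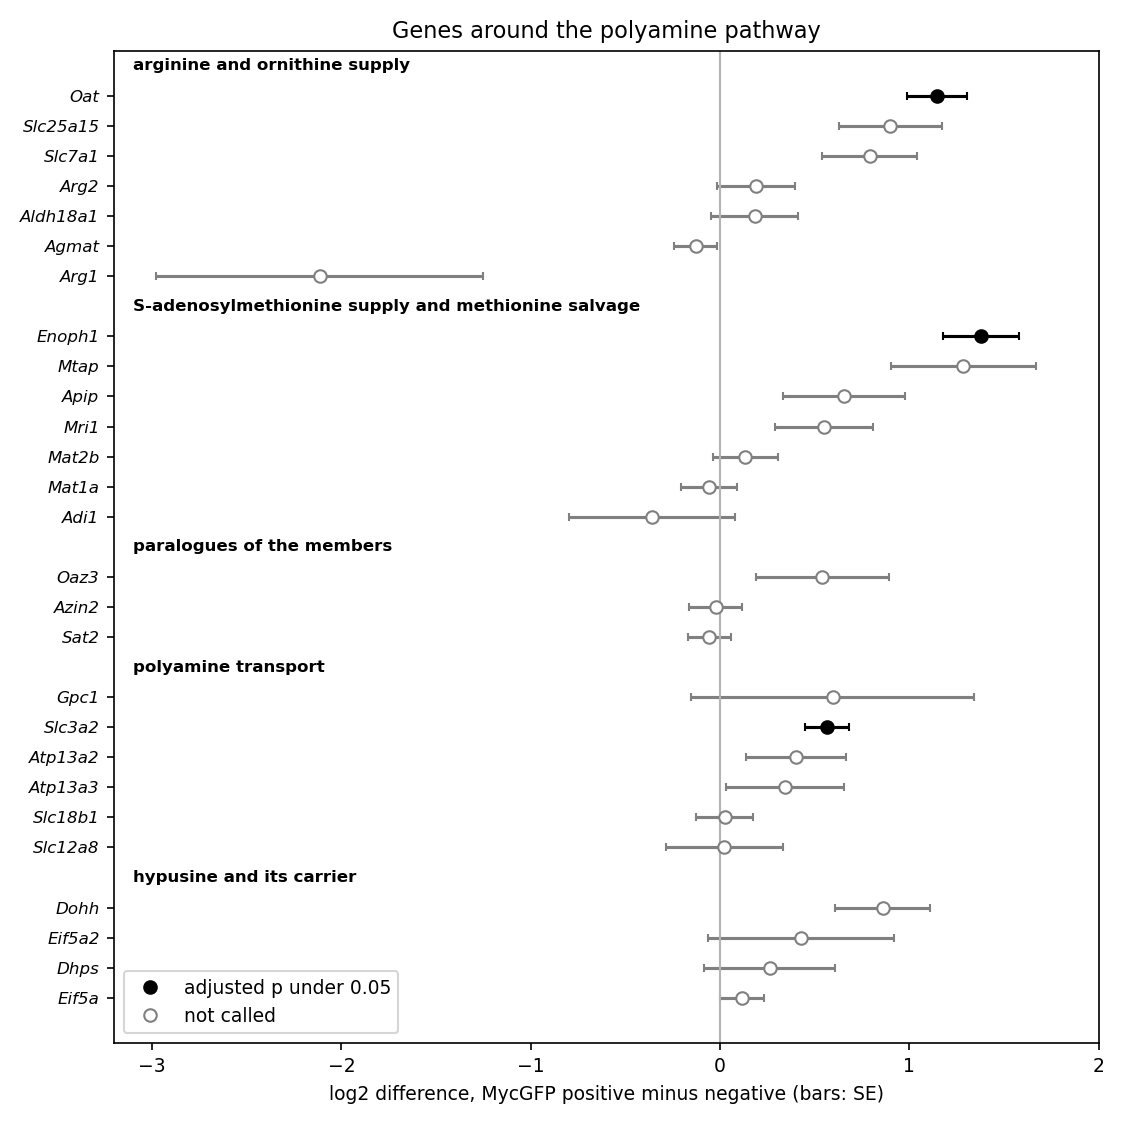
Log2 difference of MycGFP positive minus negative arrays for 27 genes around the polyamine pathway, grouped by role, with limma's SE as bars and filled points for an adjusted p under 0.05. Oat, Enoph1 and Slc3a2 are filled at 1.15, 1.38 and 0.57, and Arg1 lies lowest at -2.12 with the widest bar.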

How the data were processed

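Affymetrix arrays measured RNA of the sorted cells after amplification of 5 ng total RNA with the Ovation system, per the labels' protocols, which can favour 3' ends and add noise to dim genes. The deposited values are linear probe set intensities summarised with RMA, per the submitters' processing notes; the version and genome build are not given in the sources used here. Because RMA equalises the arrays, they do not show differences in a cell's total RNA. Log2 of the deposited intensity was taken.

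Names came from the platform annotation, with symbols updated by Entrez identifier in RefSeq's gene table (GRCm38.p6), where 34754 matched. Of 45101 probe sets, 34945 had 1 symbol, 932 several and 9160 others none; 64 control probe sets were left out. The probe set with the highest mean log2 value stood for a gene, and the members' probe sets were also tested singly. Groups came from the sample titles. Both fits used limma 3.58.1 (R 4.3.3) with lmFit and eBayes (two-sided, Benjamini-Hochberg over all genes or probe sets, threshold 0.05), with 4 residual and 2.17 prior degrees of freedom. The size of the differences in the fit over genes was checked on simulated data with independent noise, which is no check of the p-values. Folds are antilogs of log2 differences. The members and lists were chosen with earlier results of these data known. Named were all members, Myc, every called gene of the surrounding pathway and the gene with the smallest adjusted p of each of its roles. Slc7a1, Slc25a15, Mtap, Arg1, Mat2b, Eif5a, Eif5a2 and Dhps and single cell cycle and marker genes were named after their values were seen.

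Arrays of the same number correlated in their deviations from the group means over genes (r = 0.38, 0.21 and 0.39), so the numbers were taken, as an assumption from the data, to pair the arrays; no label says so. Nothing ties single samples to animals, so p-values reflect only the spread among the arrays, which may be technical. Alternatives were the number as a block, each array left out, both arrays numbered 2 left out (added after seeing the data), median centring, the mean of a gene's probe sets, no cross-hybridising or dim features, an offset of 16, a trended and robust variance, and array weights. The planned difference of Srm and Sms could not be computed without a value for Sms.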

Additional observations from a re-analysis of the deposited data

How the results depend on the processing

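Under the alternatives run, Odc1 and Srm kept a positive log2 difference, at 2.22 to 2.80 and 2.31 to 2.69. Leaving out single arrays gave 0 to 2 polyamine genes, 0 to 4 polyamine probe sets and 0 to 2 surrounding pathway genes called higher, in place of 2, 4 and 3. Over all features, these fits called 0 to 862 of 18193 genes and 0 to 1625 of 34945 probe sets higher, in place of 840 and 1664. Leaving out positive array 2 ended all of these calls, as limma then called no gene at all (at an unadjusted p under 0.05, 2209 genes were higher and 976 lower). Without both arrays numbered 2, added after seeing the data, each of these counts was 0 (without adjustment, 1728 of all genes were then higher and 759 lower). When a gene's probe sets were averaged, 6 pathway genes were called higher, adding Slc7a1, Slc25a15 and Mtap, where 1017 of all 18193 genes were. With the replicate block, 3 polyamine genes, 5 of their probe sets and 2 pathway genes were called higher, where 1047 of 18193 genes and 1891 of 34945 probe sets were. No member, member probe set or pathway gene was called lower in any setting. Azin1 passed under the block (adjusted p = 0.0452), without dim genes (0.0445) and with array weights (0.0485), over a range of 0.0445 to 0.289. Without dim genes 1022 of 9097 genes were called higher, and with array weights 1069 of 18193. Oaz1 reversed with median centring (-0.10 at gene and -0.015 at probe set level, where centring moved the median of all genes from 0.01 to -0.14) and without positive array 1 (-0.0088, the lowest value with 1 array left out, the highest being 0.13), and the dimmer Smox probe set reversed without both arrays numbered 2 (0.022). The pair differences kept their sign, at 1.44 to 1.88 for Odc1 and Azin1 and 2.18 to 2.72 for Odc1 and Oaz1; paired by number, their exact p was 0.25, the smallest that 3 pairs allow. The number of arrays and, for Smox, a signal under the array medians limit precision.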
